A study of Mus musculus with 6 samples.

Results

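The GATA family of zinc finger transcription factors, its FOG cofactors and the T-box factor Tbx20 were followed through the cells of the mouse aortic root and ascending aorta. The members are the features whose symbol is Gata2, Gata3, Gata4, Gata5, Gata6, Zfpm1, Zfpm2 or Tbx20, which makes 8 of the 31055 features in the count matrix, each with 1 entry. Their transcripts, counted as unique molecular identifiers (UMIs), were read in cells with over 1000 and under 5000 genes, over 1500 and under 25000 UMIs and under 20% mitochondrial UMIs. Single-cell 3' libraries were made from 6 female mice of the 129SVE background, 16 weeks old, and cells were sorted as DCV+ PI- before capture. The study set 4 control mice (CTL, Tgfbr1+/+) beside 2 mice carrying the heterozygous Loeys-Dietz syndrome (LDS) mutation Tgfbr1M318R/+, which lowers signalling through the TGF-beta receptor. Of the CTL mice, 2 also carried Wnt2CRE and the EGFP-L10a tracer, a label of the cardiac neural crest lineage that depends on where the Wnt2 promoter drives the recombinase. The mice were not pooled, and each gave 1 library. The number at the end of a barcode separates the 6 libraries but is not paired with a mouse in the sources used here, so no library was given a genotype, no genotypes were compared and no p-value was computed.

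GATA factors bind DNA through a pair of zinc fingers and act in lineage choice. Gata4, Gata5 and Gata6 work in the heart, the endoderm and the vessel wall, Gata2 in blood stem cells and endothelium, and Gata3 in T cells and the sympathetic lineage. Zfpm1 (FOG-1) and Zfpm2 (FOG-2) are zinc finger proteins that bind the amino-terminal finger of GATA factors and repress or assist them, and Tbx20 is a T-box factor of the developing heart that acts with Gata4.

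A total of 24972 of 30716 barcodes passed the filters, from 1863 to 6395 in a library. The libraries held 18218282 to 38105145 UMIs, with medians of 5572 to 9838 UMIs per cell, so libraries differed in depth and all values below were formed within a library first. A set of 76 barcode sequences occurred in more than 1 library, which touched 152 cells, and leaving those cells out moved no class value beyond the spread between libraries. By markers, 10371 cells were vascular smooth muscle cell-like (VSMC-like), 13547 fibroblast-like, 506 endothelial-like and 548 leukocyte-like. Library 6 stood apart in having 4 endothelial-like cells, and it held 34 of the 37 cells of the smallest leukocyte-like cluster. All 8 members passed the minimum of 50 UMIs, from 70 UMIs for Gata5 to 26610 UMIs for Gata6. All 8 also did so over fibroblast-like and VSMC-like cells together, while Gata5 fell short over endothelial-like and VSMC-like cells, and Gata2 and Gata5 over VSMC1-like and VSMC2-like cells. Levels are given as UMIs of the gene per 1000000 UMIs (CPM) summed over the cells of a class in a library, and differences as the log2 ratio of 2 such sums, with a prior of 0.5 UMI. Each member was counted at its own 3' end, so levels were compared between cells and not between genes.

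Promoters were read for the members with an entry in the RefSeq table of GRCm38.p6, which held 5 of the 8 members. Those of Tbx20, whose levels followed Gata4, and of Gata2, the member highest in endothelial-like cells against the other classes, are shown to give the sequence before the start of the genes on which the results turn. Each is the 250 bases before the annotated start, in the direction of the gene, at chr9:24774304-24774553 on the minus strand and chr6:88193641-88193890 on the plus strand.
Tbx20: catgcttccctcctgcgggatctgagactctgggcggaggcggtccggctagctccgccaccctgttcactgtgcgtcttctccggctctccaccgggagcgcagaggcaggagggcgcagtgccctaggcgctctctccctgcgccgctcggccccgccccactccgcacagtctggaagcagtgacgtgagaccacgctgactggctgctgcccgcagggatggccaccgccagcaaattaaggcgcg
Gata2: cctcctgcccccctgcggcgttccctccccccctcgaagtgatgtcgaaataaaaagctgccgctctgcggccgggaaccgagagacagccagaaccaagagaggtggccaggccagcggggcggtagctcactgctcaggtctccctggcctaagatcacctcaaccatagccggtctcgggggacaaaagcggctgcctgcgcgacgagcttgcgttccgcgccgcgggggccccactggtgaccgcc
The GATA motif, taken as AGATAA or as TGATAA, each also with G in place of its last letter, was searched on both strands. Neither window shown held it, and 26.5% of 32851 promoter windows of the same length did. Neither shown window held the T-box site AGGTGTGA, found in 1.12% of windows, or the CCAAT box, found in 33.8%. The windows were rich in G and C, at 68.8% for Tbx20 and 67.2% for Gata2, and no letters stand in capitals because none of the motifs was found in them. Gata2 had a second window in the table, at chr6:88198414-88198663 before another annotated start, and that window held CCAAT 83 bases before the start and its complement ATTGG 45 bases before it. Gata4, Gata6 and Zfpm2 had no entry.

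In the annotation of the build used (GRCm38, GENCODE M21), Gata4 lies at chr14:63198922-63271692 on the minus strand, Gata6 at chr18:11052064-11085635 on the plus strand and Tbx20 at chr9:24718138-24774303 on the minus strand. Gata2 lies at chr6:88193891-88207032 on the plus strand, Gata3 at chr2:9857078-9890034 and Gata5 at chr2:180325133-180334699, both on the minus strand. Zfpm1 lies at chr8:122282141-122337251 and Zfpm2 at chr15:40655035-41104592, both on the plus strand. Exons of Gata3 overlap those of 9230102O04Rik on the same strand, so reads from that stretch cannot be assigned to one of the pair with certainty, and Zfpm1 lies within the longer gene model Gm20388. Gata3, Gata5 and Gata6 each also share exon sequence with a gene on the opposite strand.

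Gata4 and Gata6 were both present in VSMC-like and fibroblast-like cells and low in leukocyte-like cells. For Gata4 the lowest, median and highest library stood at 11.6, 14.4 and 24.6 CPM in VSMC-like cells and at 17.7, 28.1 and 32.7 CPM in fibroblast-like cells. The ranges of the classes overlapped, but within each library the fibroblast-like level was the higher, with a median log2 ratio of 0.73 (range 0.38 to 1.32, 6 of 6 libraries). Of all features tested in that comparison, 39.0% were higher and 27.2% lower in every library, and the median over all features was 0.12, so a shared direction by itself was common. Gata6 stood at 108, 127 and 147 CPM in VSMC-like cells and at 141, 177 and 194 CPM in fibroblast-like cells, a log2 ratio of 0.41 (range 0.23 to 0.71, 6 of 6 libraries).

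Endothelial-like cells gave Gata6 values of 35.4, 10.4, 118, 21.8 and 59.9 CPM in libraries 1 to 5, each below the VSMC-like value of the same library. The log2 ratio of endothelial-like to VSMC-like cells for Gata6 was -1.70 (range -3.36 to -0.23, lower in 5 of 5 libraries), where 25.5% of features were higher and 23.3% lower in every library. Gata4 was at 7.09, 0, 35.2, 1.61 and 2.30 CPM in the same libraries, so library 3 was above its VSMC-like value and the other 4 were below. Most of those UMIs came from a subcluster described below that also carried fibroblast transcripts. In leukocyte-like cells Gata4 gave 5 UMIs in all 6 libraries together, and Gata6 stood at 5.87, 11.3 and 17.3 CPM. Gata4, Gata6, Zfpm2 and Tbx20 were below the fibroblast-like level in leukocyte-like cells of 6 of 6 libraries, a comparison with 16.6% of features higher and 32.3% lower in every library. Against fibroblast-like cells, endothelial-like cells had lower Gata6 (-2.41), Zfpm2 (-1.37) and Tbx20 (-3.29) and higher Gata2 (5.26) and Zfpm1 (2.05) in 5 of 5 libraries, where 22.1% of features were higher and 22.5% lower.

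Tbx20 separated the mesenchymal classes most widely among the members with a value in every library. Its lowest, median and highest libraries were at 14.2, 20.5 and 32.0 CPM in VSMC-like cells and at 61.9, 73.8 and 114 CPM in fibroblast-like cells, and these ranges did not overlap. The log2 ratio was 1.78 (range 1.63 to 2.49, 6 of 6 libraries). This class difference did not hold in every fibroblast-like subcluster. The largest, 3966 cells described below, had Tbx20 at 0.310 to 12.9 CPM, below the VSMC-like range. Zfpm2, the FOG cofactor of the heart, stood at 13.2, 14.6 and 15.8 CPM in VSMC-like and at 20.2, 28.4 and 40.6 CPM in fibroblast-like cells, again without overlap. Its log2 ratio was 0.90 (range 0.55 to 1.62, 6 of 6 libraries). Both were below their VSMC-like level in leukocyte-like cells, where Zfpm2 was at a median of 7.08 CPM (6 of 6 libraries lower) and Tbx20 at 5.92 CPM (5 of 6 lower). Of the features compared between leukocyte-like and VSMC-like cells, 20.4% stood higher in the leukocyte-like cells of every library and 32.4% stood lower.

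Gata2 was highest in endothelial-like cells, at 56.7, 31.3, 75.7, 54.8 and 55.3 CPM in libraries 1 to 5. VSMC-like cells gave 0.163, 0.528 and 0.791 CPM and fibroblast-like cells 0.609, 1.40 and 2.0 CPM for the lowest, median and highest library. No endothelial-like value came near those of the other classes, and the log2 ratio to VSMC-like cells was 6.41 (range 5.87 to 8.30, 5 of 5 libraries). The order below the endothelial-like cells was not steady, since fibroblast-like Gata2 was above VSMC-like Gata2 in 5 of 6 libraries (median log2 ratio 1.34, range -0.10 to 2.61), and 0.72 when classes came from log-normalized clusters without integration. Zfpm1, the FOG cofactor of blood and endothelium, was also highest in this class when whole classes were compared. It stood at 21.3, 20.8, 39.2, 27.4 and 23.0 CPM in endothelial-like cells against 3.32, 4.40 and 5.08 CPM in VSMC-like cells. The log2 ratio for Zfpm1 was 2.62 (range 2.17 to 3.01, 5 of 5 libraries). In fibroblast-like cells Zfpm1 ran from 5.08 through 7.13 to 16.9 CPM, with libraries 2 and 6 above the rest. Its log2 ratio to VSMC-like cells had a median of 0.65 (range 0.12 to 2.16, 6 of 6 libraries), which became 1.06 without library 1, 3 or 5 and 0.23 without library 2, 4 or 6. A fibroblast-like subcluster led by Cd74, described below, had Zfpm1 at 24.0 to 95.4 CPM, reaching above the endothelial-like cells. It held 380 of the 834 fibroblast-like Zfpm1 UMIs.

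Gata3 was highest in leukocyte-like cells, at 6.36, 17.2 and 31.2 CPM, against 1.36, 2.47 and 3.19 CPM in VSMC-like cells, with a log2 ratio of 2.70 (range 1.35 to 3.74, 6 of 6 libraries). Within the leukocyte-like cells 54 of 58 Gata3 UMIs lay in the 105 cells of the cluster led by Cd3e, Cd3g and Trbc1, genes of the T cell receptor complex, which stood at 107 CPM. The cluster led by C1qc, Pf4 and Mgl2, genes of macrophages, was at 0.730 CPM. Fibroblast-like Gata3 stood at 2.44, 6.37 and 9.13 CPM and overlapped the leukocyte-like range. Gata5, a factor of the endocardium, was near the limit of the data, with 16 UMIs in VSMC-like cells, 51 UMIs in fibroblast-like cells and none in leukocyte-like cells. Its fibroblast-like level was above the VSMC-like level in 5 of 6 libraries.

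**Figure D1:**
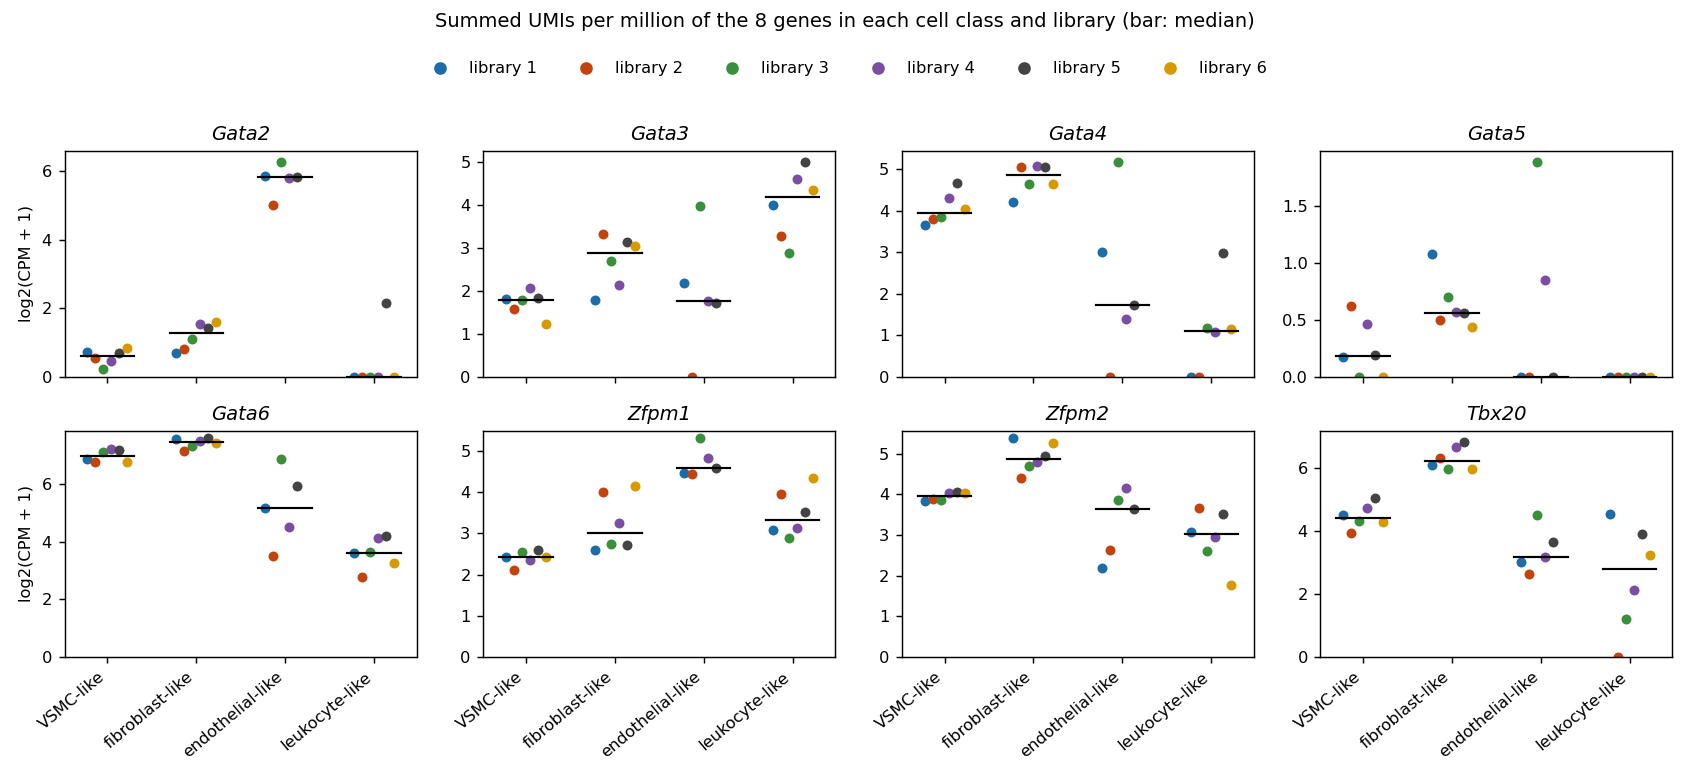
Each panel is 1 gene, the vertical axis is log2(CPM + 1), each point is a library and the bar is the median over libraries in VSMC-like, fibroblast-like, endothelial-like and leukocyte-like cells (sums of at least 10 cells). Gata2 and Zfpm1 have their highest bars in endothelial-like cells, Gata3 in leukocyte-like cells, and Gata4, Gata6, Zfpm2 and Tbx20 in fibroblast-like cells.

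Shares of cells with a UMI were compared after each cell was thinned to 3000 UMIs, which left out 562 VSMC-like, 1232 fibroblast-like, 143 endothelial-like and 100 leukocyte-like cells. Intervals are exact binomial at 95% and, as UMIs of cells are not replicates, cover counting error only. Gata6 was found in 31.95% of VSMC-like cells (31.0 to 32.9) and 37.6% of fibroblast-like cells (36.8 to 38.5), against 2.90% (1.55 to 4.91) in leukocyte-like cells. Gata4 was found in 5.01% (4.58 to 5.46) and 7.17% (6.72 to 7.64), against 0 of 448 leukocyte-like cells, which allows a share of cells with a UMI at this depth of up to 0.670%. Without thinning 5 of 548 leukocyte-like cells, 0.912%, had a Gata4 UMI, so the limit is not one on cells that express the gene. Tbx20 was found in 6.59% (6.10 to 7.09) and 16.1% (15.5 to 16.8), against 1.56% (0.630 to 3.19), and Zfpm2 in 4.44% (4.05 to 4.87) and 8.06% (7.58 to 8.55), against 2.23% (1.08 to 4.07). Median depths before thinning were 7206 UMIs in VSMC-like, 6111 in fibroblast-like and 5162 in leukocyte-like cells. Gata2 was found in 15.4% of endothelial-like cells (11.9 to 19.6), whose median depth was 4601 UMIs, against 0.102% (0.0489 to 0.187) of VSMC-like cells. Zfpm1 was found in 7.71% of endothelial-like cells (5.19 to 11.0) against 1.46% (1.23 to 1.72) of VSMC-like cells. The fibroblast-like share of Zfpm1 was 2.10% and the leukocyte-like share 2.68% (1.39 to 4.63). Neither class was uniform for Zfpm1, since the share was 12.6% (10.4 to 15.2) in the fibroblast-like cells led by Cd74 and 7.25% (2.39 to 16.1) in the leukocyte-like cluster led by Cd3e, so leukocyte-like cells are no blank for this gene.

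Within the fibroblast-like cells, clustered again without the members among the genes used, Gata4 and Tbx20 varied widely between subclusters and Gata6 little. Over the 7 subclusters of at least 5% of the class, the range of log2(CPM + 1) was 4.71 for Gata4, 6.02 for Tbx20, 4.71 for Gata3 and 3.63 for Zfpm1. It was 1.10 for Gata6 and 1.65 for Zfpm2. Subclusters are called by the 3 genes with the largest fold against the other cells of the class.

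The highest Gata4, Tbx20 and Gata6 among fibroblast-like subclusters were in 812 cells led by Cd74, H2-Eb1 and H2-Aa, genes of antigen presentation, with Prss35, Coch and Wnt16 among the next. The values of Gata4 there were 133, 110, 127, 146, 133 and 112 CPM in libraries 1 to 6, against a median of 18.4 CPM in the other fibroblast-like cells. The log2 ratio of Gata4 was 2.77 (range 2.20 to 3.09, 6 of 6 libraries), in a comparison where 11.9% of features were higher and 13.5% lower in every library. Tbx20 stood at 464, 217, 395, 228, 341 and 169 CPM against a median of 60.3 CPM, with a log2 ratio of 1.84 (range 1.33 to 3.37, 6 of 6). Gata3 stood at 53.1, 53.1, 41.5, 22.5, 131 and 57.7 CPM against 2.16 CPM, a log2 ratio of 4.67 (range 3.54 to 5.79, 6 of 6). This subcluster held 327 of the 532 Gata3 UMIs of the fibroblast-like cells. Its library 1 values, here and below, rest on 17 cells.

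Zfpm1 in the same cells was at 26.5, 67.3, 35.0, 45.5, 24.0 and 95.4 CPM against 5.34 CPM, with a log2 ratio of 3.12 (range 2.25 to 3.74, 6 of 6 libraries). Zfpm2 went the other way, at 33.2, 10.2, 15.7, 13.4, 13.3 and 5.24 CPM against 29.2 CPM, with a log2 ratio of -1.08 (range -2.95 to -0.30, lower in 6 of 6), so the FOG cofactors stood in opposite directions. Gata6 was 0.54 higher (range 0.21 to 0.65, 6 of 6). After thinning, 29.3% of these cells had a Gata4 UMI (26.1 to 32.7), 47.9% a Tbx20 UMI (44.3 to 51.5) and 46.8% a Gata6 UMI (43.2 to 50.5). The summed leukocyte markers were at 5.00 to 16.0 CPM over libraries. Ptprc and Cd3e had no UMI there, while Cd68 had 32, Lyz2 16, Laptm5 8, C1qa 7 and Cd79a 2 UMIs. The part of leukocyte transcripts in the Gata3 and Zfpm1 values was not tested. Summed VSMC markers reached 605 to 4683 CPM over libraries, and 4.56% of the cells were among the highest doublet scores of their library. With all libraries summed, VSMC markers were at 1597 against 2482 CPM in the other fibroblast-like cells. Glia markers were at 196 against 72.6 CPM, and their part in the member values was not tested.

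The opposite profile was in the largest subcluster, 3966 cells led by F3, Pex5l and Cpxm2. Gata4 stood at 1.59, 6.27, 2.33, 4.38, 10.7 and 0 CPM against a median of 37.9 CPM in the other cells (log2 ratio -3.53, range -8.38 to -1.77, lower in 6 of 6 libraries). Tbx20 was at 2.64, 2.87, 2.16, 2.02, 12.9 and 0.310 CPM against 105 CPM (log2 ratio -5.30, range -7.87 to -3.40, lower in 6 of 6). Library 5 was the highest for both genes, and even there each lay below the lowest VSMC-like library, at 11.6 CPM for Gata4 and 14.2 CPM for Tbx20. Gata6, at 167 to 230 CPM, was slightly higher than in the other cells (log2 ratio 0.26, 6 of 6), and Zfpm2, at 28.5 to 53.1 CPM, was higher by 0.70 (range 0.48 to 0.94, 6 of 6). In that comparison 9.69% of features were higher and 22.7% lower in every library. Gata6 without Gata4 or Tbx20 was also seen in the 335 cells led by Tfap2b, Pax9 and Dlx6, transcription factors of neural crest and pharyngeal arch cells. Those cells gave 2 UMIs of Gata4 and 2 of Tbx20 in all, beside 441 UMIs of Gata6, which stood at 211, 154, 168, 219 and 219 CPM in libraries 1, 2, 3, 4 and 6. Gata6 was higher than in the other fibroblast-like cells in 5 of 5 libraries (log2 ratio 0.16) and Zfpm2 lower (-0.66), where 7.65% of features were higher and 12.8% lower.

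Between these ends, the 978 cells led by Igfbp3, Ptn and Gucy1a1 had Gata4 at 58.8, 39.8, 41.2, 61.9, 62.7 and 47.8 CPM (log2 ratio 1.03, range 0.35 to 2.05, 6 of 6 libraries). Tbx20 was 0.69 higher there (range 0.13 to 1.52, 6 of 6), with 6.02% of features higher and 10.1% lower in every library. The 883 cells led by Cilp2, Spp1 and Ucma, genes of cartilage matrix and mineral, had a higher Tbx20 (log2 ratio 1.21, range 0.83 to 1.75) and Gata4 (0.65, range 0.40 to 0.95) and a lower Zfpm2 (-0.78, range -1.09 to -0.60), each in 6 of 6 libraries, where 6.18% of features were higher and 14.9% lower.

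These Cilp2 cells also held 75 of the 124 fibroblast-like Gata2 UMIs, at 9.24, 3.90, 7.18, 12.6, 6.51 and 35.1 CPM (log2 ratio 3.84, range 2.44 to 7.19, 6 of 6 libraries). The Gata2 UMIs were not spread over the subcluster. A group of 90 cells, 10.2% of it, had UMIs of at least 2 endothelial markers and gave 62 of the 75 UMIs, or 106 CPM, against 1.90 CPM in the other 793 cells. In those 90 cells the summed endothelial markers were at 3758 CPM against 40.2 CPM, the summed fibroblast markers at 10613 against 37467 CPM, Gata6 at 259 against 209 CPM, Gata4 at 24.0 against 43.9 CPM and Tbx20 at 75.3 against 173 CPM. Without these cells the Gata2 ratio was 1.96. Of the other fibroblast-like cells, 61 had at least 2 endothelial markers and none of those had a Gata2 UMI.

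In the 3161 cells led by Has1, Tnfaip6 and Ptx3, genes of the hyaluronan matrix, Tbx20 had a median of 149 CPM and was higher in 5 of 6 libraries (log2 ratio 0.76, range -0.26 to 1.72), while Gata6 (-0.32) and Zfpm2 (-0.32) were lower in 6 of 6, where 8.8% of features were higher and 14.4% lower in every library. The 1629 cells led by Emilin2, Wnt10b and Cadm3 had the lowest median Gata6 of the fibroblast-like subclusters compared, at 106 CPM (log2 ratio -0.79, range -0.91 to -0.65, lower in 6 of 6), beside 17.1% of features higher and 14.6% lower. Gata4 was lower in 6 of 6 libraries both in the 787 cells led by Cytl1, Cst6 and Pthlh (-0.95), where 3.32% of features were higher and 10.5% lower, and in the 537 cells led by Mmp3, C2 and Cpz (-2.21), where 3.12% were higher and 12.0% lower. The 406 cells led by Myh11, Cnn1 and Kcnmb1 carried contractile transcripts and had 60.6% of their number among the highest doublet scores. Gata4 (-0.82) and Tbx20 (-0.79) were lower there in 6 of 6 libraries, where 6.63% of features were higher and 12.7% lower.

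**Figure D2:**
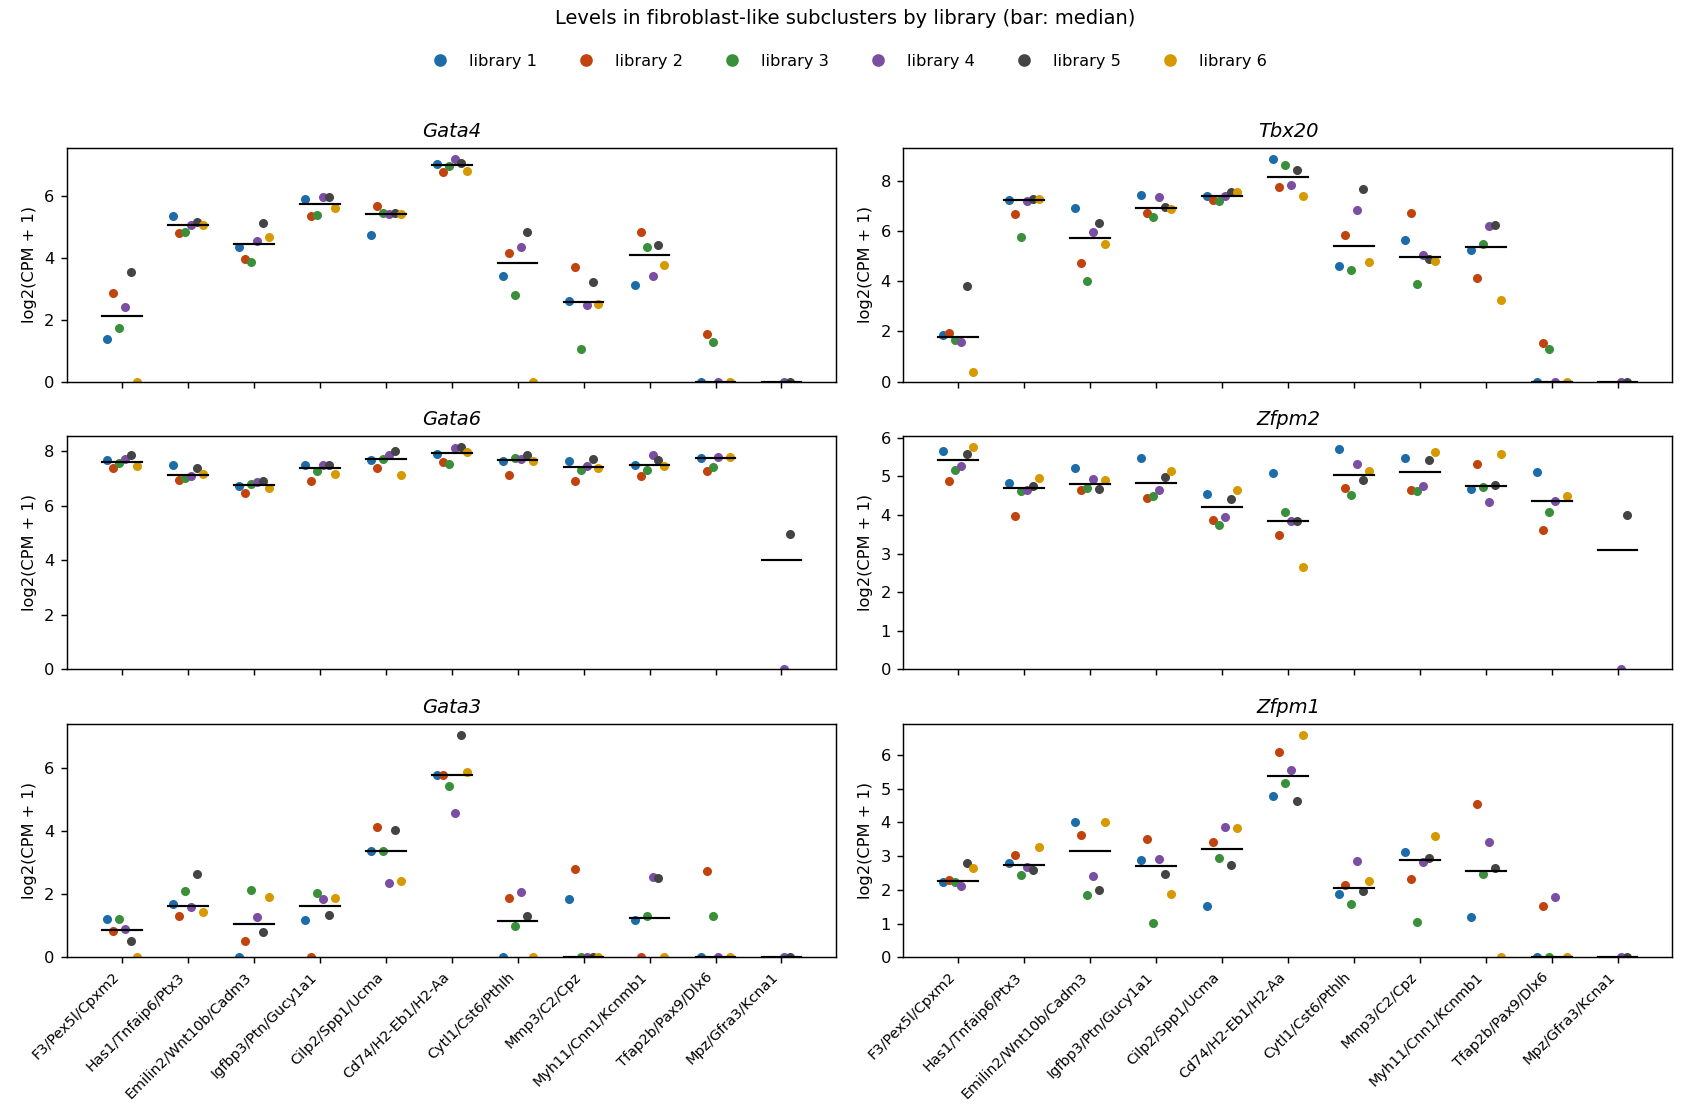
The horizontal axis lists the fibroblast-like subclusters by their leading genes, the vertical axis is log2(CPM + 1), each point is a library with at least 10 cells and the bar is the median over libraries, for Gata4, Tbx20, Gata6, Zfpm2, Gata3 and Zfpm1. Gata4 and Tbx20 are both low in the F3/Pex5l/Cpxm2 and Tfap2b/Pax9/Dlx6 cells, where Gata6 keeps bars of 195 and 211 CPM.

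The study divides aortic VSMCs into VSMC1 and VSMC2 along the axis from the ascending aorta to the root. In the deposited counts the first split gave a VSMC1-like group of 7749 cells (74.7%) and a VSMC2-like group of 1976 cells (19.1%), told apart by Tes and Ptprz1 on the one side and Enpep and Notch3 on the other. Gata4 in VSMC2-like cells was at 35.2, 31.2, 26.8, 32.9, 43.1 and 35.0 CPM in libraries 1 to 6, against 9.01, 7.59, 11.8, 14.6, 21.2 and 10.1 CPM in VSMC1-like cells, and the ranges did not overlap. The log2 ratio was 1.48 (range 1.02 to 2.02, 6 of 6 libraries), beside 13.4% of features higher and 16.4% lower in every library. Tbx20 was at 71.5, 36.1, 42.3, 51.7, 62.0 and 32.1 CPM against 15.9, 7.72, 14.2, 17.4, 26.2 and 15.3 CPM, likewise without overlap (log2 ratio 1.57, range 1.06 to 2.21, 6 of 6).

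Zfpm2 was also higher in VSMC2-like cells, at 18.4 to 22.6 CPM against 11.4 to 15.1 CPM (log2 ratio 0.73, range 0.34 to 0.98, 6 of 6 libraries). Gata6 was not: at 98.3, 96.5, 144, 136, 123 and 89.9 CPM it was below the VSMC1-like value in 5 of 6 libraries, by a median log2 ratio of -0.23 (range -0.30 to 0.05). Gata3 was higher in 6 of 6 libraries (log2 ratio 1.21, range 0.10 to 1.90) on 67 and 115 UMIs, and Zfpm1 in 4 of 6 (0.45). The VSMC2-like group had 14.6% of its cells among the highest doublet scores against 1.83%, and summed fibroblast markers at a median of 3462 CPM against 1843 CPM. Without the subclusters rich in fibroblast or cardiomyocyte transcripts, the ratios were 1.79 for Gata4, 1.34 for Tbx20, 0.63 for Zfpm2 and 1.41 for Gata3, while Gata6 was at -0.51 and Zfpm1 turned to -0.31.

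A split by marker genes alone gave 1097 VSMC-like cells with a UMI of Enpep or Notch3 and none of Tes or Ptprz1, and 3986 with the reverse, all thinned to 3000 UMIs. Of the first, 66.5% were VSMC2-like, and of the second 4.29%. Gata4 was at 34.3 against 11.0 CPM over these cells (median log2 ratio 1.64, range 0.98 to 2.99, 6 of 6 libraries), Tbx20 at 43.5 against 16.0 CPM (1.39, 6 of 6) and Zfpm2 at 20.7 against 12.4 CPM (0.52, 6 of 6). Gata6 was lower by a log2 ratio of -0.23 in 5 of 6 libraries. The Gata3 difference was not seen with this split (log2 ratio -0.20, higher in 3 and lower in 3 libraries, on 10 and 27 UMIs).

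At a finer division, Gata4 was above the other VSMC-like cells in every library with enough cells in 4 subclusters. The 554 cells led by Olfr558, Nrip2 and Kcna5 had Gata4 at 43.4, 29.2, 35.1, 35.6, 38.4 and 46.2 CPM (log2 ratio 1.41, range 0.68 to 1.97), with 8.5% of features higher and 21.4% lower in every library. Gata6 was at its lowest there, at 47.1, 57.0, 116, 100.0, 131 and 67.3 CPM (log2 ratio -0.66, lower in 6 of 6), and Zfpm2 was 0.86 higher (6 of 6). The 954 cells led by Col8a1, Ankrd1 and Hspa1b had both Gata4 (1.23, range 0.46 to 1.64) and Tbx20 (1.22, range 0.88 to 1.89) higher and Gata6 lower (-0.33) in 6 of 6 libraries, where 4.83% of features were higher and 13.9% lower. The 374 cells led by Cd74, H2-Aa and H2-Eb1 had Gata4 1.11 and Gata6 0.49 higher in 5 of 5 libraries, where 4.83% of features were higher and 8.3% lower. Their summed fibroblast markers were at 3671 against 2081 CPM in the other VSMC-like cells, with 5 of 7 in at least 10% of cells, and leukocyte markers at 10.2 against 3.96 CPM, with 0 of 7, and the part of these was not tested. In the 640 cells led by Cygb, Abca8a and Dpt, where 11.7% of features were higher and 10.2% lower, Gata4 (0.69), Tbx20 (1.52), Zfpm2 (0.80) and Gata6 (0.31) were all higher in 6 of 6 libraries. Those cells had 41.7% of their number among the highest doublet scores and summed fibroblast markers at 8860 against 1656 CPM in the other VSMC-like cells, and the part of these in the member values was not tested.

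Gata4 was lowest in the 649 VSMC-like cells led by Rgs5, Prrx2 and Adamtsl1, at 3.49, 3.38, 1.00, 0, 11.2 and 1.79 CPM (log2 ratio -2.55, range -8.03 to -1.16, lower in 6 of 6 libraries). Summed pericyte markers stood at 4487 against 330 CPM in the other VSMC-like cells, with 4 of 6 in at least 10% of cells, and lymphatic endothelial markers at 138 against 14.99 CPM, with 0 of 6, and their part in the member values was not tested. Tbx20 was also lower there (-1.37, 6 of 6), while Gata6, at 110 to 147 CPM, was above the other cells in 3 libraries and below in 3. In that comparison 9.04% of features were higher and 5.54% lower in every library. In the 2737 cells led by Ccdc42, Tes and Krt18, Gata4 (-1.41), Tbx20 (-0.87), Zfpm2 (-0.50) and Zfpm1 (-0.39) were all lower in 6 of 6 libraries, beside 9.72% of features higher and 11.7% lower. Gata6 was the only member with 1 direction in every library in the 2000 cells led by Fos, Fosb and Socs3, immediate early genes, where it was higher (log2 ratio 0.17) in 6 of 6 libraries beside 3.14% of features higher and 13.5% lower, and in the 881 cells led by Igfbp2, Des and Tnnt2, where it was lower (log2 ratio -0.17) in 6 of 6 beside 4.36% higher and 11.5% lower. The Rgs5 and Ccdc42 cells shared a low Gata4 and Tbx20 with a Gata6 that had no common direction.

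**Figure D3:**
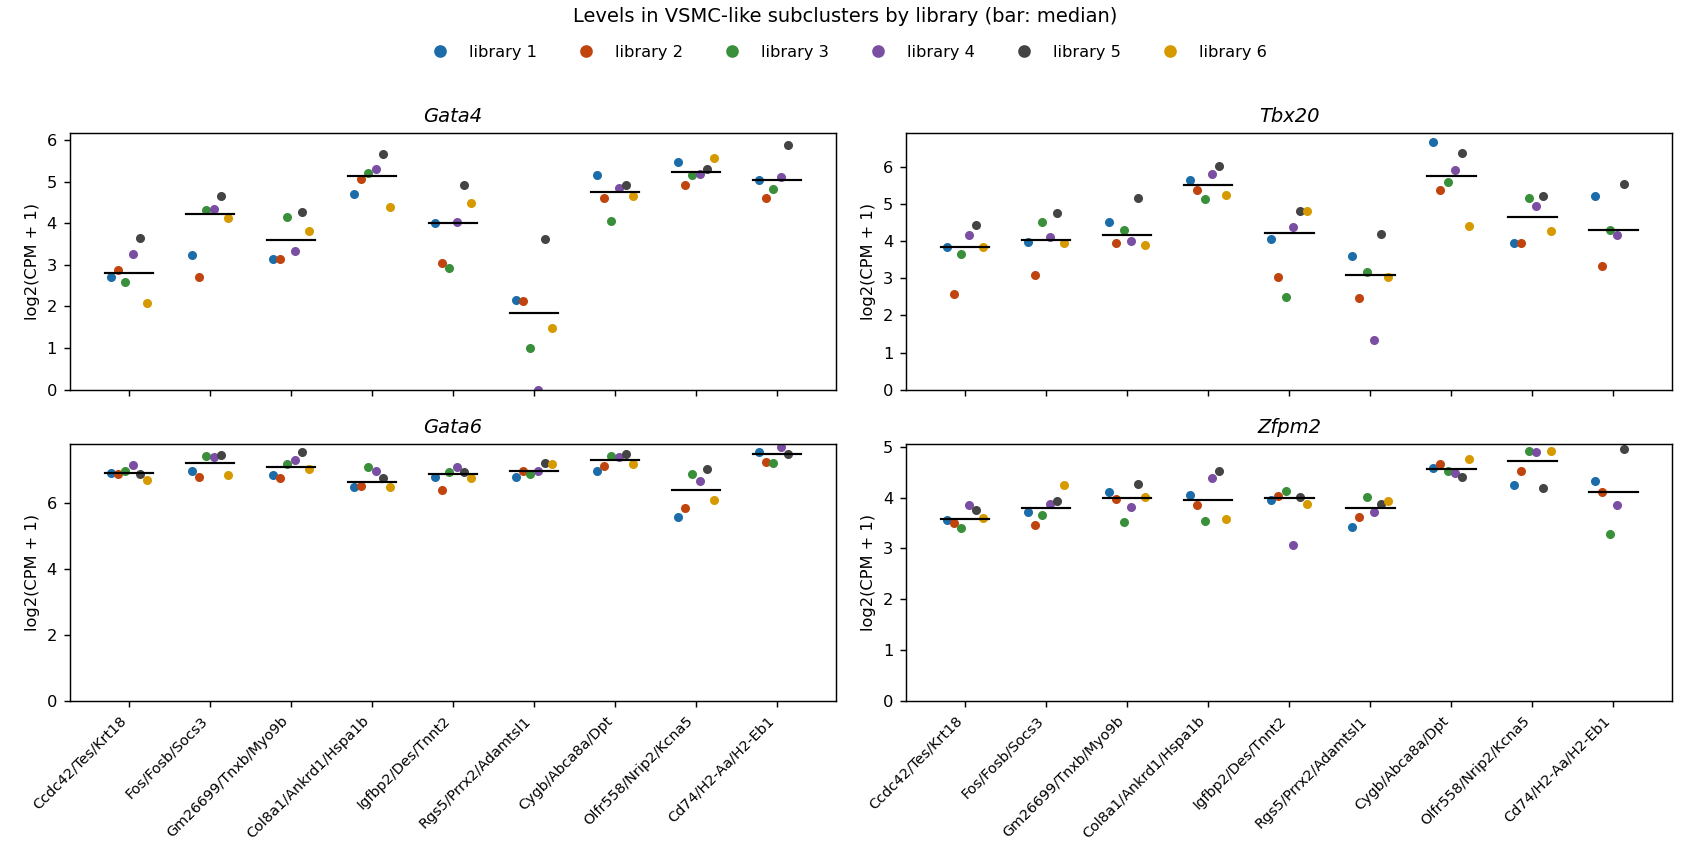
The horizontal axis lists the VSMC-like subclusters by their leading genes, the vertical axis is log2(CPM + 1), each point is a library with at least 10 cells and the bar is the median over libraries, for Gata4, Tbx20, Gata6 and Zfpm2. The Gata4 bars run from 2.58 CPM in the Rgs5/Prrx2/Adamtsl1 cells to 37.0 CPM in the Olfr558/Nrip2/Kcna5 cells, while those of Gata6 run from 83.7 to 177 CPM.

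The endothelial-like cells fell into 5 subclusters, and those given here shared Gata2 and differed in the other members. The subclusters of 44 and 23 cells are left out. In the 23 cells, summed pericyte markers were at 9917 against 556 CPM in the other endothelial-like cells, and 52.2% were among the highest doublet scores. With all libraries summed and exact Poisson intervals for counting error, Gata2 was at 71.4 CPM (56.4 to 89.1) in 244 cells led by Car4, Scgb3a1 and Esm1, at 35.4 CPM (21.0 to 55.9) in 112 cells led by Ccl21a, Reln and Gm21541 and at 64.8 CPM (47.8 to 85.9) in 83 cells led by Inhba, Fst and Hapln1. The Car4 cells had no Gata4 or Tbx20 UMI, which allows up to 3.38 CPM at the upper end of the interval, and Gata6 at 10.1 CPM (5.03 to 18.02). In them Gata6 was below the other endothelial-like cells in 5 of 5 libraries (log2 ratio -3.38), with 8.72% of features higher and 9.15% lower in every library. The Inhba cells held 31 of the 33 endothelial-like Gata4 UMIs and 130 of the 160 Gata6 UMIs, at 41.8 CPM (28.4 to 59.4) and 175 CPM (147 to 208). In the Inhba cells Dcn was detected in 90.4% of cells and 37.3% were among the highest doublet scores, and the part of these in the Gata4 and Gata6 values was not tested. The Ccl21a cells, led by a lymphatic chemokine, had Zfpm2 at 35.4 CPM (21.0 to 55.9) against 3.66 CPM (0.998 to 9.38) in the Car4 cells.

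The likeness of patterns was measured as the Pearson correlation of log2(CPM + 1) over 105 sums of at least 50 cells, each 1 subtype in 1 library, among 12165 genes. These points share libraries and subtypes and are given as a description only. The gene most like Gata4 was Tbx20 (r = 0.88), followed by Pth1r (0.79), Rtn4rl1 (0.78), 5033428I22Rik (0.72) and Gm34030 (0.70), and the gene most like Tbx20 was Gata4, followed by Rtn4rl1 (0.78), Rgs17, Epha7 and Tmem45a. Within the VSMC-like sums alone r of Gata4 and Tbx20 was 0.81, and within the fibroblast-like sums 0.91, over 50 sums each. Gata6 was most like Bgn (0.91), Casc4 (0.91), Lhfp (0.90), Nfix (0.89) and Ak1 (0.87), and its r with Gata4 was 0.07 within VSMC-like and 0.06 within fibroblast-like sums. Zfpm2 was most like Nr2f2 (0.83), Serping1, Adamts5, Ntn4 and Daam1. Its r with Gata4 was 0.51 within VSMC-like and -0.44 within fibroblast-like sums.

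The other members ranked were Gata2, Gata3 and Zfpm1. Gata2 was most like Cldn5 (0.77), Podxl, Emcn, Myct1 and Tie1, several of which are endothelial genes. The only endothelial-like sums, of the Car4 and Ccl21a cells, came from library 4, so the endothelial part of this ranking rests on 1 library. The leukocyte-like cluster led by Cd3e, with most leukocyte-like Gata3 UMIs, had no sum of at least 50 cells. Gata3 was most like Mal (0.74), Col9a3, Rapgef4, Tmem178 and Dbi, and Zfpm1 was most like Cyp4b1 (0.71), AC167229.1, Cda, 5930412G12Rik and Mal. Gata5 had too few UMIs to be ranked.

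**Figure D4:**
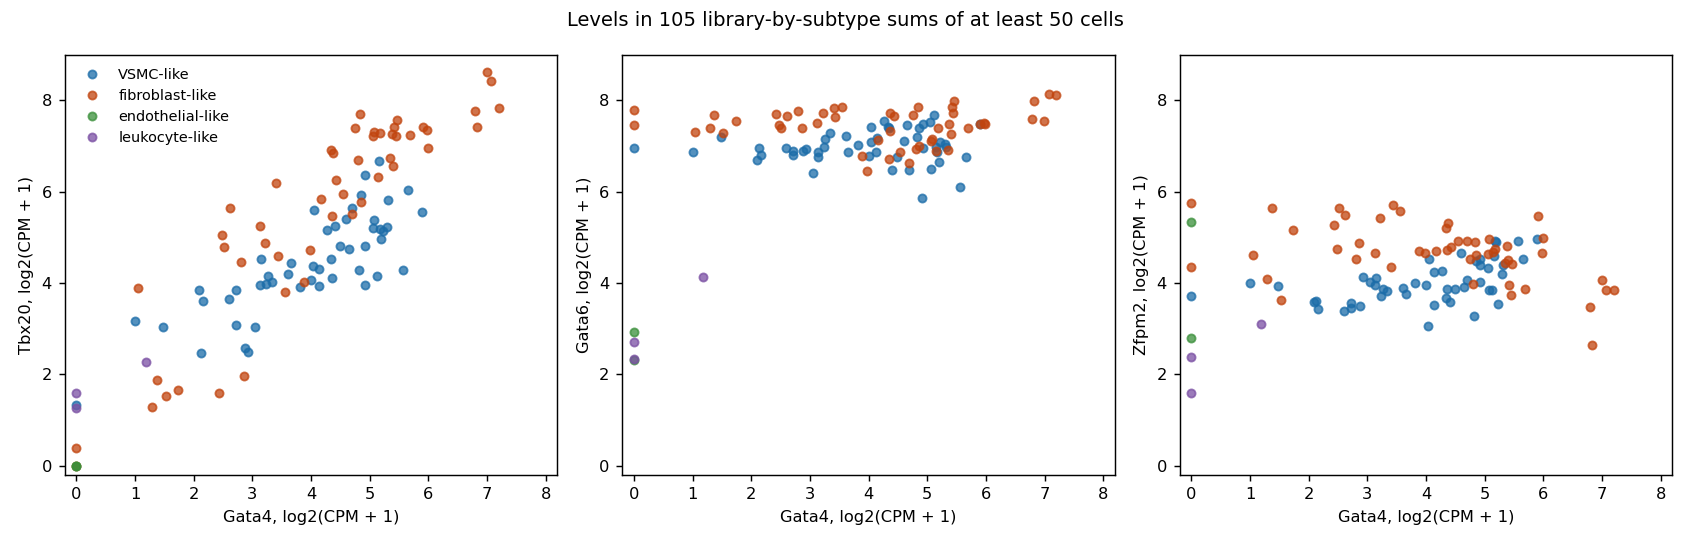
Each point is 1 of 105 library-by-subtype sums, coloured by cell class, with log2(CPM + 1) of Gata4 on the horizontal axis and of Tbx20, Gata6 or Zfpm2 on the vertical axis. The points climb together for Tbx20 (r = 0.88 over all sums), while within the VSMC-like and fibroblast-like points Gata6 stays in a narrow band across the whole range of Gata4.

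Whether single cells carried pairs of members together was examined at a matched depth of 3000 UMIs, by setting the number of cells with both against the product of the shares within each library. For Gata4 and Gata6 in VSMC-like cells 177 cells had both against 160 expected, a ratio of 1.11 that was above 1 in 3 of 6 libraries. Gata6 was found in 36.0% of the VSMC-like cells with Gata4 (31.8 to 40.5) and in 31.7% of those without (30.8 to 32.7), intervals that overlapped. Thinning to 5000 UMIs gave a ratio of 0.97, and 10 bins of depth without thinning gave 0.99, so no direction held. In fibroblast-like cells 359 cells had both against 332 expected (1.08, above 1 in 4 of 6 libraries), with Gata6 in 40.7% of cells with Gata4 (37.4 to 44.0) and 37.4% of those without (36.5 to 38.3).

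Gata4 and Tbx20 were found together more often than their shares gave in every library. In VSMC-like cells 64 cells had both against 34.0 expected (1.88, 6 of 6 libraries), and in fibroblast-like cells 324 against 148 (2.19, 6 of 6). Tbx20 was found in 36.7% of fibroblast-like cells with Gata4 (33.5 to 40.0) and in 14.5% of those without (13.9 to 15.2). When the expected number was formed within subclusters, the ratios were 1.51 in VSMC-like and 1.22 in fibroblast-like cells, so a part of the excess followed the differences between subclusters. Gata4 and Zfpm2 in fibroblast-like cells were found together less often, in 44 cells against 69.9 (0.63, below 1 in 6 of 6), as were Zfpm2 and Tbx20, in 96 cells against 158 (0.61, below 1 in 6 of 6). Within subclusters the ratio of Gata4 and Zfpm2 was 0.84. In VSMC-like cells Gata4 and Zfpm2 were found together in 29 cells against 22.7 expected (1.28, above 1 in 5 of 6 libraries, and 1.15 within subclusters), with overlapping intervals for the share of Zfpm2 in cells with Gata4 (3.99 to 8.37) and without (3.96 to 4.80). Gata3 was found with Gata4 in 37 fibroblast-like cells against 13.1 expected and with Tbx20 in 71 against 28.5. Of these, 31 and 50 cells lay in the Cd74 subcluster, where 30.3 and 49.1 were expected from its own shares, ratios of 1.02 and 1.02. In VSMC-like cells Gata3 and Gata4 were found together in 2 cells against 4.17.

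**Figure D5:**
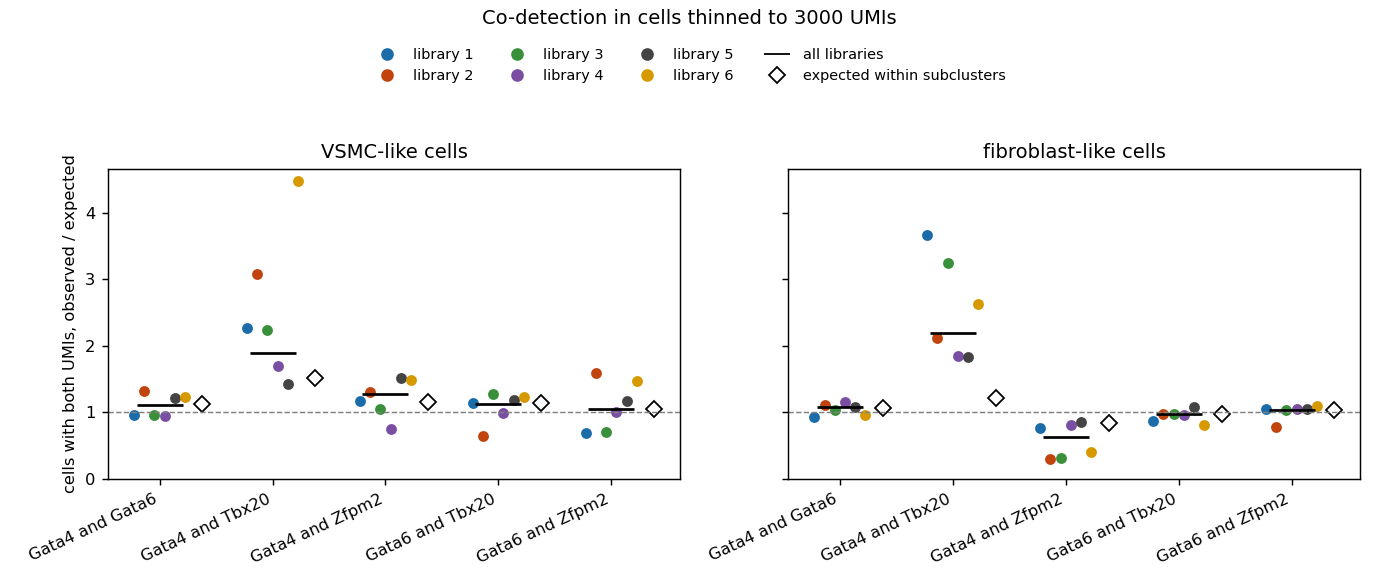
The vertical axis is the number of cells with UMIs of both genes divided by the number expected from their shares, for 5 pairs in VSMC-like and fibroblast-like cells thinned to 3000 UMIs, with a point per library, a bar for all libraries together, a diamond where the expected number was formed within subclusters and a dashed line at 1. Gata4 and Tbx20 lie above the line in all 6 libraries of both classes, and Gata4 and Gata6 lie on both sides of it.

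Other genes of the pathway were taken from fixed lists. Between VSMC-like and fibroblast-like cells 13 cardiac partners of GATA factors were tested, and in all libraries 5 were higher and 7 lower in the fibroblast-like cells, with a median log2 ratio of -0.72, beside 39.0% of all features above, 27.2% below and a median over them of 0.12. Tbx5 (3.20), Nfatc1 (1.46) and Nfatc4 (0.94) led the first, and Myocd (-4.31), the coactivator of the contractile program, Mef2c (-1.84) and Nkx2-5 (-1.54) the second. Of 6 blood and endothelial partners 3 were higher and none lower, led by Lmo2 (6.07), a bridge between GATA factors and bHLH proteins, Runx1 (2.83) and Fli1 (1.38). Of 13 chromatin partners 3 were higher and 3 lower (median 0.06), shares below those of all features. Of 12 tested targets of Gata4 or Gata6 from other tissues 4 were higher and 2 lower, also at or below those shares, among them Bmp4 (3.15), Nppa (2.80) and Cebpd (1.84) above and Myh6 (-3.13) and Slc8a1 (-1.51) below. The VSMC-like class holds 17 cells led by Myl3, Cox6a2 and Myh6, with summed cardiomyocyte markers at 25674 against 37.7 CPM in the other VSMC-like cells. They came from libraries 3, 4 and 5, Myh6 was lower in fibroblast-like cells of every library, and the part of these 17 cells in the Myh6 value was not tested. Of 8 targets of Gata2 or Gata3, 7 were higher and none lower, led by Tek (6.30), a receptor that is also an endothelial gene. Pecam1, Emcn, Kdr and Vwf of that list are endothelial markers, and the Cilp2 subcluster, which holds the 90 cells with endothelial transcripts, gave 387 of the 452 fibroblast-like Emcn UMIs and 1292 of the 4296 Pecam1 UMIs but 144 of the 2224 Tek UMIs. In the Cilp2 cells 6 of the 8 targets were higher than in the other fibroblast-like cells, and in the Cd74 cells 5 were lower (median -2.65). The part of the endothelial transcripts in the class values was not tested. Trps1, an atypical GATA-type repressor, was higher in 6 of 6 libraries (1.13).

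In endothelial-like over VSMC-like cells all 6 tested blood and endothelial partners were higher in 5 of 5 libraries, led by Lmo2 (7.30), Tal1 (5.99) and Fli1 (4.91), as were all 8 targets of Gata2 or Gata3, led by Emcn (11.58), Kdr (11.02) and Tek (8.32). Of all features, 25.5% were higher and 23.3% lower in that comparison. Pecam1, Emcn, Kdr and Vwf of that list also served as endothelial markers, so their direction was set by the naming of the class. Of 12 cardiac partners 3 were higher, led by Nfatc1 (2.54), and 5 lower, among them Hand2 at a median of 10.4 against 114 CPM (-3.38), Myocd (-3.85) and Nkx2-5, at a median of 0 against 1.79 CPM.

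Between VSMC2-like and VSMC1-like cells 13.4% of all features were higher and 16.4% lower in every library. Of 12 cardiac partners 2 were higher, Nfatc1 (0.51) and Nfatc4 (0.36), and none lower, and of 13 chromatin partners 1, Ctbp2 (0.44), a corepressor bound by FOG proteins, so the shares higher were near or below that of all features. Of 6 blood and endothelial partners Tal1 (3.95), Lmo2 (2.26) and Runx1 (1.87) were higher, all at medians of at most 20.3 CPM. Against the other VSMC-like cells, 3 of these partners were higher and none lower in the Cygb cells, which also carried fibroblast transcripts. In each of the Col8a1, Olfr558 and VSMC-like Cd74 cells none was higher and 1 was lower. All features higher and lower were 11.7% and 10.2% for the Cygb and 4.83% and 13.9% for the Col8a1 cells. For the Olfr558 cells they were 8.5% and 21.4%, and for the VSMC-like Cd74 cells 4.83% and 8.3%. Of 11 targets of Gata4 or Gata6, Bmp4 (2.11), Cebpd (0.68), Cebpb (0.47) and Malat1 (0.26) were higher and Agtr1a (-2.62), the angiotensin receptor, was lower, at a median of 1.04 against 8.12 CPM. The study had reported Cebpd, Cebpb and Malat1 as higher in VSMC2 from these data. As the lists were chosen with earlier results known, that count is no independent result. In situ images of the study showed more Agtr1a in the root than in the ascending aorta of LDS mice. Here CTL and LDS libraries could not be told apart. Among the finer subclusters, 4 targets of Gata4 or Gata6 were higher and 2 lower in the Cygb cells. In the Col8a1 cells 1 was higher and 5 lower, in the Olfr558 cells 2 and 4, and in the VSMC-like Cd74 cells 2 and 1. The part of the fibroblast transcripts in the VSMC2-like list values was not tested. In the fibroblast-like cells led by Cd74, where Gata4 was highest, 1 of 13 cardiac partners was higher, Hand2 (1.09), and 1 of 12 targets of Gata4 or Gata6, Malat1 (0.45), where 11.9% of all features were higher. Of the same targets 4 were lower, beside 13.5% of all features, namely Edn1 (-5.22), Cebpd (-1.38), Bmp4 (-1.0) and Nppa, at a median of 0 against 1.23 CPM.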

How the data were processed

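The authors deposited whole UMI counts per gene and barcode for all 6 libraries in 1 matrix, without normalization. The submitters' processing notes name Cell Ranger 6 and the mm10 build. Whether aggregation equalized depth is not given in the sources used here. Genes were found by symbol and located by Ensembl identifier in GENCODE M21.

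Cells passing the filters were normalized per library with SCTransform (sctransform 0.4.2) and integrated by reciprocal PCA in Seurat 5.3.0 (30 components, 3000 variable genes, resolution 0.25), leaving the 8 genes and the partner and target lists out of the variable genes. Classes were named from at least 3 of fixed markers, and VSMC-like and fibroblast-like cells were clustered again at 0.3. Endothelial-like cells were too few per library for SCTransform and were clustered on log-normalized counts (15 components). No resolution gave exactly 2 VSMC-like subclusters of at least 5%, so the 2 largest at 0.05 were used. Doublets were scored with Scrublet (scanpy 1.11.5) and kept, with the highest 5% of each library removed as an alternative.

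Counts were summed per library and population of at least 10 cells. Features with at least 50 UMIs in the populations compared were read as higher or lower when every library had 1 direction. As the libraries carry no genotype, they were not taken as replicates, and no test or SD is given with the results. An SD over the library values served only as the limit for alternative values. Intervals of 95% and the limit for 0 (3 counts) cover counting error only. Named genes were all members, the list genes at both ends of each comparison (3 with the highest ratios and 3 with the lowest), and the 5 genes with the highest correlation for members with at least 300 UMIs; Gata5 was below that. The script that forms the ratios was tested on simulated data. The members and lists were chosen with earlier results of these data known.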

Additional observations from a re-analysis of the deposited data

Results flagged for a closer look

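Of 30 sets of library values of a member in a class, Gata5 in fibroblast-like cells stood out: library 1, at 1.12 CPM, lay farther from the other libraries than Dixon's 95% limit allows, while the others were at 0.352 to 0.622 CPM. The value rests on few of the 51 Gata5 UMIs of the class, and chance alone picks about 1 in 20 such sets.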

How the results depend on the processing

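The spread between libraries was taken as 1 SD of the library values, except for counts of list genes. Of 461 alternative values for 66 results, 432 stayed within the spread between libraries, 28 moved beyond it and 1, among results with 1 direction in every library, turned. Results without a common direction could also change sign, as Zfpm1 below did and as Gata4 with Gata6 in VSMC-like cells did around a ratio of 1 (1.11 as reported, 0.97 and 0.99 at other depths). With the highest doublet scores removed, Zfpm1 in endothelial-like over VSMC-like cells had a log2 ratio of 2.25 (2.62 as reported). Without the VSMC-like subclusters rich in another type, an alternative chosen after seeing the data, VSMC2-like over VSMC1-like ratios became -0.51 for Gata6 and -0.31 for Zfpm1. The Gata3 ratio turned to -0.20 when cells were split by Enpep, Notch3, Tes and Ptprz1, and the cause was not tested. At resolution 0.15, with fewer subclusters, the range of log2(CPM + 1) over fibroblast-like subclusters was 0.76 for Gata6 and 4.65 for Tbx20. Without cells with at least 2 endothelial markers, also chosen after seeing the data, the Gata2 ratio of the Cilp2 cells was 1.96. Gata4 and Tbx20 in fibroblast-like cells had an observed over expected number of 1.22 with the expected number formed within subclusters. For Gata4 and Zfpm2 in VSMC-like cells thinning to 2000 UMIs gave 1.86 (1.28 as reported), and with at least 200 UMIs 1 blood and endothelial partner in place of 3 had 1 direction between VSMC2-like and VSMC1-like cells.

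Shares of cells with a UMI follow depth by construction. Without thinning, with 2000 and with 5000 UMIs they were 13.7%, 4.69% and 10.8% for Gata4, 59.5%, 28.2% and 52.8% for Gata6 and 24.8%, 12.2% and 21.9% for Tbx20 in fibroblast-like cells. In VSMC-like cells they were 58.2%, 23.2% and 45.5% for Gata6 and 13.9%, 4.54% and 10.0% for Tbx20, and 11.4% unthinned and 7.87% at 5000 UMIs for Gata4. Gata2 in endothelial-like cells reached 25.3% unthinned and 25.8% at 5000 UMIs. Cells shallower than the thinned depth were left out, so these shares are not over the same cells. With a median of 4601 UMIs, the endothelial-like share at 5000 UMIs covers the deeper cells only.

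Leaving out 1 library at a time moved none of 195 values beyond the spread. That spread came from the same libraries, and leaving 1 out shifts a median or a pooled ratio little, so the check could hardly have failed. The fibroblast-like over VSMC-like log2 ratio of Zfpm1 ran from 0.23 to 1.06 and still lay within it. The log2 ratio of fibroblast-like over VSMC-like cells then ran from 0.65 to 0.80 for Gata4, from 0.39 to 0.42 for Gata6, from 0.88 to 0.92 for Zfpm2 and from 1.73 to 1.83 for Tbx20. That of VSMC2-like over VSMC1-like cells ran from 1.17 to 1.79 for Gata4, from 1.56 to 1.57 for Tbx20 and from -0.27 to -0.19 for Gata6. No paired analysis was possible because the libraries carry no genotype or replicate number and no groups were compared. Depth limits Gata5, with 70 UMIs in all, and the 506 endothelial-like cells, of which library 6 held 4.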
